A study of Mus musculus with 32 samples.

Results

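The 4 FGF receptor genes (Fgfr1, Fgfr2, Fgfr3 and Fgfr4) and 6 genes that respond to FGF signaling (Etv4, Etv5, Spry1, Spry2, Spry4 and Dusp6) were followed through the organs of the mouse embryo. These 10 genes, taken by name, are 10 of the 23154 genes measured. The list was drawn up with earlier results of these data known. The data are single-cell RNA-seq profiles of 1916 cells from 8 organs or tissues (forebrain, hindbrain, heart, somite, intestine, liver, lung and skin) in 32 samples. They came from 7 C57BL/6J embryos: 3 of embryonic day 9.5 (E9.5) and a pair each of E10.5 and of E11.5. The labels name no engineered allele and no treatment, and by them E9.5 embryo 2 was female and the other 6 were male. The study kept 1819 cells and placed 1815 of them in 4 major groups (epithelial, neuronal, hematopoietic and mesoderm-derived). In intestine, liver, lung and skin it also named 289 epithelial and 352 mesenchymal cells, and these names are used here.

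FGFs are secreted ligands that bind receptor tyrosine kinases at the cell surface. The activated receptor docks the adaptor Frs2, with Grb2 and Sos1, and drives the Ras-MAPK cascade. Etv4 and Etv5, ETS-family transcription factors, are transcribed in response. Spry1, Spry2 and Spry4, the Sprouty inhibitors of receptor tyrosine kinase signaling, and Dusp6, a phosphatase that inactivates ERK, are induced as well and feed back on the cascade. The transcripts of these genes are widely used to mark cells that receive the signal, although other receptor tyrosine kinases can induce them. In organogenesis the pathway is best known for the budding of the lung, where mesenchymal Fgf10 acts on epithelial Fgfr2, and for the patterning of the brain by Fgf8 and its relatives.

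Values are on the scale log2(TPM/10 + 1), where TPM stands for a gene's UMIs among every 1000000 of its cell. A value of 1 is a TPM of 10, the level at which a gene counted as expressed. The replicate was the embryo, whose value averages its cells in a set (3 or more). Errors are SDs over embryos. A gene was called between sets at an adjusted p under 0.05 where the difference was also 1 or more in size. For change over time the minimum size was a slope of 0.5 per day. Fewer cells expressing a gene and less RNA of it per cell cannot be told apart in such a mean.

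Depth ran from 20326 to 2524348 UMIs per kept cell, with a median of 306642, and the medians of the embryos ran from 192177 to 928653, the highest in E9.5 embryo 2. No cell name occurred in more than one file, but 14 pairs of cells had the same UMIs in every gene, and 1 cell of each pair was counted. E9.5 embryo 3 gave pooled tissue only (lung and liver in one library, skin, intestine and somite in the other), so brain and heart at E9.5 rest on embryos 1 and 2. These 2 embryos are labelled HiSeq 2500 and all others HiSeq 4000, so in brain and heart the day E9.5 and the sequencer cannot be told apart. E9.5 embryo 1 stood apart in the brain, and the results that rest on it are given with and without it. All 6 epithelial markers had a mean of at least 1 in each of the 4 epithelial sets. Skin epithelium also carried mesenchymal markers (6 of 8 at a mean of at least 1, summed levels from 5.36 to 17.1 against 31.4 to 42.3 in skin mesenchyme). Liver mesenchyme came from the 3 E9.5 embryos and held cardiomyocyte markers (4 of 5, summed levels from 5.63 to 21.0 against 29.0 to 33.9 in the heart). The part of these markers in the results was not tested.

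The promoters of Dusp6 and Spry1, the response genes with the steepest slopes over the days in the forebrain (-1.20 and -0.87 per day, the latter not called), are shown as the 250 bases before the gene start (RefSeq, GRCm38.p6). Without E9.5 embryo 1 these slopes were -0.86 and -0.09, and neither was called. The windows are given on the strand of the gene, 5′ to 3′, in lower case. Capitals mark the letters CGGAAG, which occur in many ETS sites, or their reverse complement CTTCCG.
Dusp6, chr10:99262981-99263230, plus strand: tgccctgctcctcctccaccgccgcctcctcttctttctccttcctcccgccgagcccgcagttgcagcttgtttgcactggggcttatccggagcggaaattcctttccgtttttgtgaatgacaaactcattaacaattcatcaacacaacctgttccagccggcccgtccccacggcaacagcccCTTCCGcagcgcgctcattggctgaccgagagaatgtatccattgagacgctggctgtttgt
Spry1, chr3:37639697-37639946, plus strand: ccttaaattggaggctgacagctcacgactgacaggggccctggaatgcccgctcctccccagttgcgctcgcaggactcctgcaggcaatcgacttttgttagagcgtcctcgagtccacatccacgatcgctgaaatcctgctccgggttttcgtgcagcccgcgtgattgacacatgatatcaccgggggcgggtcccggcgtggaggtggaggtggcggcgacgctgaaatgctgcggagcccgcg
The Dusp6 window held 1 match and the Spry1 window 0. Over all promoters of the RefSeq table, 4466 of 32851 windows of this length (13.6%) held a match on either strand. The table matched 7 of the 10 genes with 9 windows, of which 1 held a match. No factor binding was measured, and a match is only a description of the letters.

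In the same build 9 of the 10 genes lie as follows: Fgfr1 on chromosome 8 (25518759 to 25575718, plus strand), Fgfr2 on chromosome 7 (130162451 to 130266808, minus) and Fgfr3 on chromosome 5 (33721724 to 33737068, plus). Fgfr4 lies on chromosome 13 (55152818 to 55168759, plus), Etv4 on chromosome 11 (101769747 to 101785310, minus) and Etv5 on chromosome 16 (22381313 to 22439570, minus). Spry1 lies on chromosome 3 (37639947 to 37644599, plus), Spry2 on chromosome 14 (105891947 to 105896819, minus) and Dusp6 on chromosome 10 (99263231 to 99267489, plus). Fgfr1, Fgfr3 and Spry1 overlap a gene on the opposite strand (Gm16159, G630022F23Rik and Gm42922), and Spry4, whose position is not given here, overlaps 2 such genes. The strand setting of the counting is not given in the sources used here, so reads of these genes may not be separable. Reads come from the 3′ ends of transcripts, so splice forms of a receptor (such as the epithelial and mesenchymal forms of Fgfr2) were not resolved.

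Among the 4 major groups, the question was which groups carry receptors and response transcripts at all. Fgfr2 was higher in the epithelial group, Dusp6 was higher in the mesoderm-derived group, and Fgfr1 and Fgfr2 were lower in the hematopoietic group. Each group was compared with the mean of the other 3. Fgfr2 had embryo means from 0.62 to 3.01 (median 2.44) in the epithelial group, from 0.43 to 1.23 (median 0.85) in the neuronal group, from 0.80 to 1.23 (median 1.07) in the mesoderm-derived group and from 0.02 to 0.69 (median 0.12) in hematopoietic cells. Only E9.5 embryo 1, whose epithelial cells came to 0.62, fell within the range of the other groups. That embryo gave no lung or skin sample, so organ make-up differs between the embryo means. By organ, mean Fgfr2 was 3.50 in skin and 2.61 in lung epithelium. It was 1.74 in intestine and 0.78 in liver epithelium, lower than in the mesenchyme of those organs (2.18 and 1.22). The difference for the epithelial group was 1.48 (SE 0.20, adjusted p = 2.29e-06 by limma), and 1 of 10 members was called, beside 2.27% of all genes. Etv5 (0.66, adjusted p = 0.00107) and Fgfr4 (0.77, adjusted p = 2.08e-12) were higher there under the minimum difference.

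The hematopoietic group had the lowest levels. Fgfr1 ranged from 0.00 to 0.10 over its 7 embryos, whereas no embryo of the other 3 groups was under 0.71, and the ranges did not overlap. Its difference was -1.38 (SE 0.14, adjusted p = 1.38e-08), and that of Fgfr2 was -1.17 (SE 0.20, adjusted p = 2.43e-05). Of the 10 members 2 were called, beside 6.85% of all genes. By adjusted p alone all 10 members were lower, beside 33.2% of all genes, with a median difference of -0.53 over the members and -0.03 over all genes tested. Dusp6 was not absent from these cells, at 0.71 ± 0.25 (SD, n = 7 embryos), against 2.20 ± 0.61 in the mesoderm-derived group.

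Dusp6 in the mesoderm-derived group ranged from 1.33 to 2.68 (median 2.47), against 0.14 to 1.84 (median 1.44) in the epithelial and 0.35 to 1.86 (median 1.49) in the neuronal group. Both E11.5 embryos, at 1.33 each in the mesoderm-derived group, lay within the ranges of the other groups. The difference was 1.15 (SE 0.25, adjusted p = 0.00138), and 1 of 10 members was called, beside 1.52% of all genes. In the neuronal group 0 of 10 members were called, beside 3.31% of all genes, while 5 passed the adjusted p alone with differences from -0.30 (Fgfr4) to 0.59 (Fgfr1). By limma 7 had an unadjusted p under 0.05 there, and edgeR called 6.

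**Figure D1:**
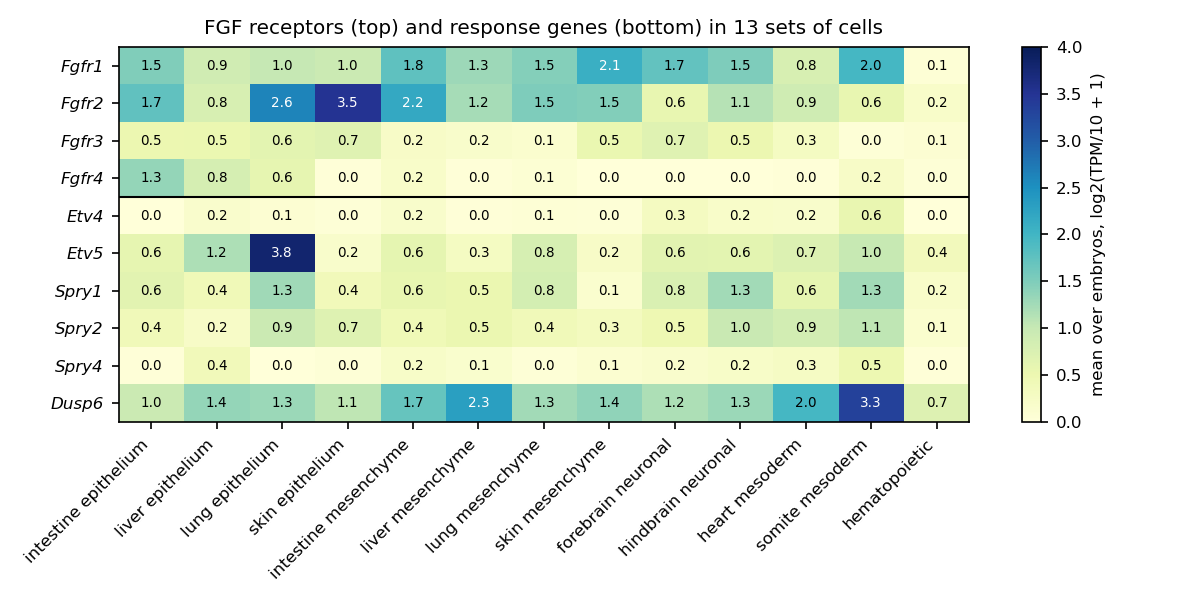
Mean level over embryos, log2(TPM/10 + 1), of the 4 receptors (upper rows) and 6 response genes (lower rows) in 13 sets of cells (columns), with the value printed in each cell of the map. Etv5 is highest in lung epithelium (3.80), Fgfr2 in skin epithelium (3.50) and Dusp6 in the somite (3.33), and each receptor is at 0.20 or lower in hematopoietic cells.

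The receptors differed in where they were found. Fgfr1 had a mean of at least 0.79 in all 12 sets other than the hematopoietic one. Its means were highest in skin mesenchyme (2.08 ± 0.33, n = 6 embryos), the somite (1.96 ± 0.53, n = 7), intestine mesenchyme (1.75 ± 0.37, n = 7) and forebrain (1.72 ± 0.53, n = 6), and lowest in the heart (0.79 ± 0.25, n = 6). In the order of the 13 sets, neighbours had non-overlapping embryo ranges in 1 of 12 cases, the heart and hematopoietic cells, and all other neighbours overlapped. Fgfr3, the receptor known for its part in bone growth and the nervous system, had no set mean above 0.68 (skin epithelium, SD 0.43, n = 6), and it was at 0.03 ± 0.04 (n = 7) in the somite. None of its neighbours in the order were apart.

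Fgfr2 was highest in skin epithelium, where the 6 embryos had 3.06, 3.20, 3.25, 3.43, 3.97 and 4.10. The next set was lung epithelium, at 2.13 to 3.05 (mean 2.61 ± 0.40, n = 6). Every embryo of skin epithelium lay above every embryo of lung epithelium, if only just. These were the only neighbours of the order that did not overlap (1 of 12). Fgfr2 was lowest, hematopoietic cells aside, in the somite (0.56 ± 0.19, n = 7), the forebrain (0.57 ± 0.32, n = 6) and liver epithelium (0.78 ± 0.48, n = 6).

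Fgfr4, the receptor that in the adult liver serves bile acid control with the co-receptor Klb, was found in the endodermal epithelia. Its values in intestine epithelium were 1.02 to 1.80 (median 1.38, n = 7 embryos), in liver epithelium 0.64 to 1.29 (median 0.76, n = 6) and in lung epithelium 0.18 to 0.85 (median 0.60, n = 6). In skin epithelium 5 of the 6 embryos were at 0.00 and the other at 0.11. Outside the endodermal epithelia the highest set mean was that of the somite, 0.23 ± 0.21 (n = 7).

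The comparison of epithelium with mesenchyme in the same organ asked which side of each organ rudiment carries a gene. The lung and skin showed the largest differences. In lung, Etv5 was 2.33 to 4.94 (median 4.02) in epithelium and 0.35 to 1.15 (median 0.92) in mesenchyme. The ranges did not overlap, and the difference was 2.99 (SE 0.34, adjusted p = 4.46e-09), with the same sign in 6 of 6 embryos. Fgfr2 was also higher in lung epithelium, by 1.11 (SE 0.31, adjusted p = 0.0171) in 6 of 6 embryos, although its ranges overlapped (2.13 to 3.05 against 0.67 to 2.59). Without E9.5 embryo 3 the Fgfr2 difference was 1.04 (adjusted p = 0.0560), without E10.5 embryo 1 it was 0.99 (adjusted p = 0.0932) and without E10.5 embryo 2 it was 0.999 (adjusted p = 0.103), so its call rested on each of these embryos. It was also lost with edgeR (0.84, adjusted p = 0.340) and after thinning to 100000 UMIs (0.96, adjusted p = 0.0601). In lung 2 of 10 members were called, beside 3.49% of all genes, and 8 of 10 differences were above 0 with a median of 0.47 against 0.00 over all genes.

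In skin the 2 main receptors were split. Fgfr2 was higher in epithelium than in mesenchyme (3.06 to 4.10 against 0.86 to 1.85), by 2.02 (SE 0.31, adjusted p = 3.15e-06). Fgfr1 was lower in epithelium (0.55 to 1.71 against 1.61 to 2.60), by -1.13 (SE 0.29, adjusted p = 0.00596). Both had 1 sign in 6 of 6 embryos. Without E10.5 embryo 1, which had the highest mesenchymal Fgfr1, the Fgfr1 difference was -1.01 and its call was lost (adjusted p = 0.0524). These 2 of 10 members were called, beside 3.71% of all genes. Skin epithelium carried mesenchymal markers, as given above, and their part in the Fgfr1 and Fgfr2 differences was not tested.

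In intestine Fgfr4 was higher in epithelium (1.02 to 1.80) than in mesenchyme (0.00 to 0.46), by 1.15 (SE 0.10, adjusted p = 9.85e-12) in 7 of 7 embryos. It was the 1 of 10 members called there, beside 3.97% of all genes. In liver 0 of 10 members were called by limma, beside 5.8% of all genes. There 3 had an unadjusted p under 0.05 and edgeR called 1. Fgfr4 passed the adjusted p alone in liver (0.79, adjusted p = 3.61e-05) and in lung (0.53, adjusted p = 0.00113), in both cases higher in epithelium. The liver contrast sets epithelium of all days against mesenchyme of E9.5.

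**Figure D2:**
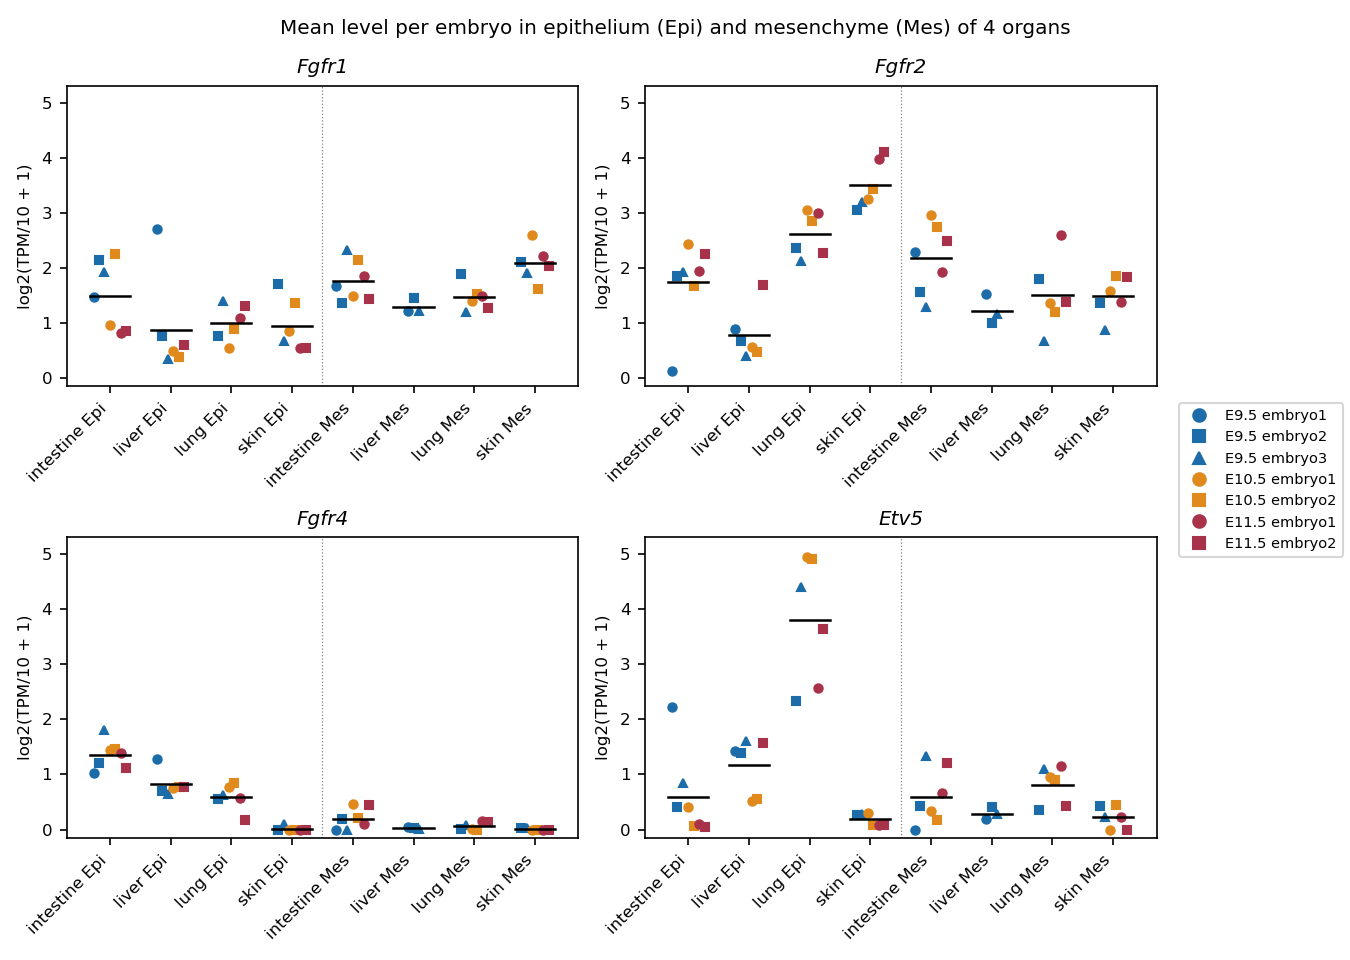
Level per embryo (points, colored by day and shaped by embryo) of Fgfr1, Fgfr2, Fgfr4 and Etv5 in epithelium (Epi, left of the dotted line) and mesenchyme (Mes) of 4 organs, in log2(TPM/10 + 1), with black bars at the mean. Skin epithelium holds the highest Fgfr2 points (3.06 to 4.10), lung epithelium the highest Etv5 points (up to 4.94), and Fgfr4 points are near 0 in skin.

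Whether an organ differed from the mean of the other 3 was asked within epithelial cells and within mesenchymal cells. Fgfr2 was higher in skin epithelium by 1.79 (SE 0.25, adjusted p = 3.19e-07), with that sign in 6 of 6 embryos, and lower in liver epithelium by -1.83 (SE 0.25, adjusted p = 1.32e-07), in 5 of 6 embryos. Etv5 was higher in lung epithelium by 3.15 (SE 0.27, adjusted p = 2.83e-12), lower in skin epithelium by -1.67 (SE 0.27, adjusted p = 6.56e-06) and lower in intestine epithelium by -1.13 (SE 0.26, adjusted p = 0.00176). The intestine call was lost with edgeR (-1.02, adjusted p = 0.364). For intestine the mean of the other 3 includes lung, and Etv5 was higher in intestine epithelium (0.59) than in skin epithelium (0.18). Skin epithelium was thus the set with the most Fgfr2 and, among the epithelia, the lowest mean of Etv5 (0.18 ± 0.11, n = 6). Members called were 2 of 10 in skin (beside 4.27% of all genes), 1 of 10 in liver (6.64%), 1 of 10 in lung (2.09%) and 1 of 10 in intestine (2.1%).

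Among epithelia under the minimum difference, Fgfr4 was higher in intestine (0.87, adjusted p = 1.88e-10) and lower in skin (-0.90, adjusted p = 1e-10). Spry1 was higher in lung (0.79, adjusted p = 0.012) and Spry4 was higher in liver (0.36, adjusted p = 0.000302). Without E9.5 embryo 2, which gave 3 cells, the Spry1 difference in lung was 1.10 and was called (adjusted p = 0.000169). Among mesenchymal cells 0 of 10 members were called in any organ, beside 1.51% of all genes in intestine, 1.45% in liver, 0.916% in lung and 1.85% in skin. Liver mesenchyme, of E9.5 alone, entered each of these comparisons. At an adjusted p alone the count was also 0 of 40 tests by limma, with 4 at an unadjusted p under 0.05. By edgeR 1 was called, Fgfr4 in intestine (2.68, adjusted p = 0.0230).

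The epithelial to mesenchymal difference itself was compared between organs by an interaction term. Each organ enters the mean that the others are set against, so the terms of a gene are not independent. Liver mesenchyme, of E9.5 alone, enters every term, and the fit had no term for the day. Etv5 in lung was 2.71 above the mean of the other organs (SE 0.39, adjusted p = 5.75e-06), the 1 of 10 members called there beside 1.85% of all genes. Fgfr2 in skin was 1.94 above it (SE 0.36, adjusted p = 0.000148), and Etv5 in skin lay below it, at -1.33 (SE 0.39, adjusted p = 0.025), 2 of 10 members beside 4.01%. In intestine both Fgfr2 (-1.33, SE 0.35, adjusted p = 0.0122) and Etv5 (-1.29, SE 0.37, adjusted p = 0.0295) lay below the mean of the other organs, 2 of 10 members beside 2.81%. In liver Fgfr2 lay below it (-1.34, SE 0.42, adjusted p = 0.0339), 1 of 10 members beside 5.29%. Mean Etv5 was itself alike in epithelium and mesenchyme of intestine (0.59 and 0.60) and of skin (0.18 and 0.22). Of the 6 called interaction differences, that of Fgfr2 in skin held when each embryo was left out and that of Etv5 in lung did so too. With edgeR that of Fgfr2 in skin was called and the other 5 were not, among them Etv5 in lung (3.06, adjusted p = 0.108). The other 4 lost their call without single embryos: Fgfr2 in liver without any of the E9.5 or E10.5 embryos (-1.19 to -1.45), Fgfr2 in intestine without E9.5 embryo 1 (-1.08, adjusted p = 0.0519) or E10.5 embryo 2 (-1.24, adjusted p = 0.0728). Etv5 in intestine was not called without E9.5 embryo 3, either E10.5 embryo or E11.5 embryo 2 (-1.05 to -1.27), and Etv5 in skin was not called without E9.5 embryo 3, E10.5 embryo 2 or E11.5 embryo 2 (-1.24 to -1.38).

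Etv5 in lung epithelium varied with the embryo. At E9.5 it was 2.33 in embryo 2 (3 cells) and 4.40 in embryo 3. At E10.5 it was 4.94 and 4.91, and at E11.5 it was 2.58 in embryo 1 and 3.63 in embryo 2 (3 cells). The lowest of these was above the highest embryo of liver epithelium (0.51 to 1.61), the set next in the order. Those were its only non-overlapping neighbours, 1 of 12, and the levels of the other response genes gave 0 of 12 each. Nkx2-1, Sox9 and Irx1, the lung epithelium markers, summed to 5.38 or more in each embryo of lung epithelium. They summed to at most 5.35 in each of the other 12 sets (highest in lung mesenchyme). In lung epithelium 2 of the 3 had a mean of at least 1.

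Levels of single genes were also read as the share of cells with a UMI, after thinning each cell to 100000 UMIs and leaving out shallower cells (1 to 48 per set). A UMI is then a TPM of 10. Hematopoietic cells, which are the nearest to a background for the receptors, had a median depth of 437877 UMIs. Fgfr2 was found in 94.3% ± 6.51 (SD, n = 6 embryos) of skin epithelial cells (median depth 226003 UMIs) and 86.0% ± 12.7 (n = 6) of lung epithelial cells (256424 UMIs), against 15.7% ± 23.6 (n = 7) of hematopoietic cells. These shares weigh each embryo alike. Among hematopoietic cells E9.5 embryo 1 gave only 3, and over all embryos 14 of 227 cells had Fgfr2. Etv5 was found in 87.3% ± 19.9 of lung epithelial cells against 18.2% ± 12.7, and Dusp6 in 92.7% ± 9.1 (n = 7) of somite cells (319995 UMIs) against 26.2% ± 10.2. Fgfr4 was found in 69.6% ± 8.78 (n = 7) of intestine epithelial cells (368816 UMIs), against 2.38% ± 2.76 of hematopoietic cells and 0 of 64 skin epithelial cells, which allows a share of up to 4.69%. Without thinning, at a TPM of at least 10, the shares were 92.5%, 88.2%, 88.0%, 93.9% and 60.8% in the same order. That of Fgfr4 fell to 48.3% when 2 UMIs were asked for. These limits cover counting error only.

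Receptors were also counted within the same thinned cells. In lung epithelium 0 of 46 cells lacked a UMI of all 4 receptors, which allows a share of up to 6.52%. The share without any receptor was 3.9% ± 6.26 in skin epithelium (n = 6 embryos), 28.1% ± 10.9 in the heart (n = 6) and 74.3% ± 19.5 in hematopoietic cells (n = 7, with 187 of 227 cells in all). Cells with 3 or 4 receptors were most frequent in intestine epithelium, at 31.8% ± 16.7 (n = 7). The pair Fgfr1 and Fgfr2 split the sets in 3 ways. Both were found in 56.1% ± 22.5 of skin epithelial, 55.8% ± 27.7 of skin mesenchymal and 53.2% ± 15.6 of intestine mesenchymal cells, and in 0 of 227 hematopoietic cells (up to 1.32%). Fgfr1 without Fgfr2 was found in 57.2% ± 14.5 of somite cells, and Fgfr2 without Fgfr1 in 55.0% ± 12.2 of lung epithelial cells. These shares are descriptions of transcripts sampled per cell, so a receptor with few transcripts was missed more often.

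**Figure D3:**
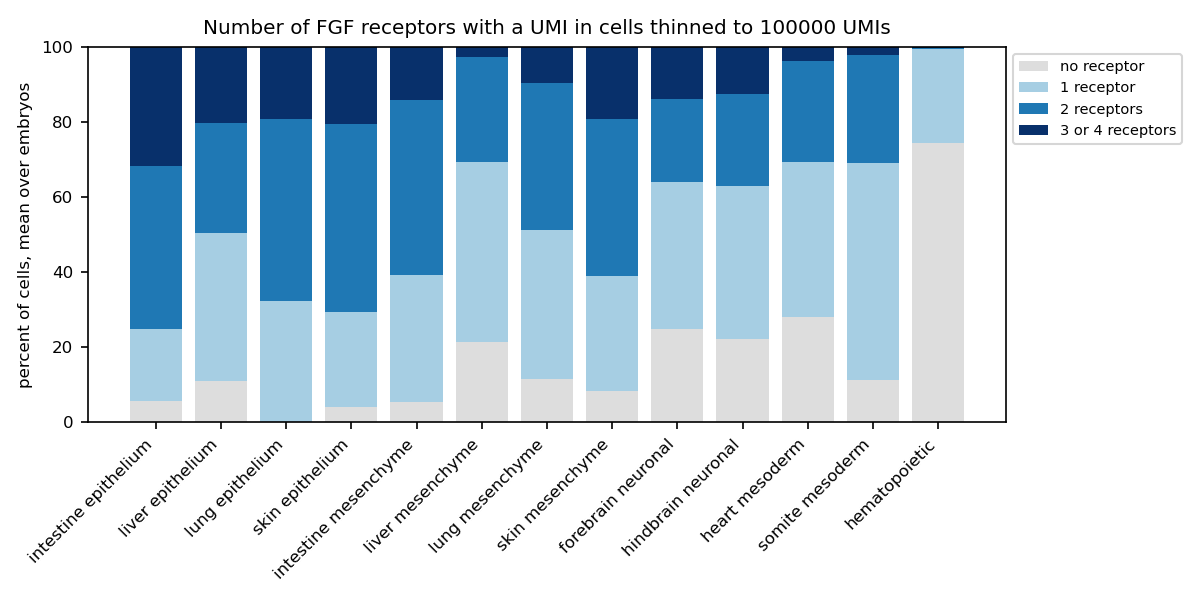
Share of cells (percent, mean over embryos) with a UMI of none, 1, 2, or 3 to 4 of the FGF receptors in each of 13 sets, in cells thinned to 100000 UMIs. The share with no receptor is 0 in lung epithelium, 3.9% in skin epithelium and 74.3% in hematopoietic cells, and intestine epithelium has the largest share with 3 or 4 receptors (31.8%).

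In the mesoderm-derived group, heart and somite were each compared with the mean of the other 5 organs. The liver means among these were of E9.5 alone. The somite, which gives rise to muscle, vertebrae and dermis, had the highest means of Dusp6, Etv4, Spry2 and Spry4 among the 13 sets. Dusp6 was 3.84, 2.74 and 3.60 in the 3 embryos of E9.5, 3.71 and 4.16 in those of E10.5 and 2.56 and 2.69 in those of E11.5. In mesoderm-derived cells of heart, intestine, liver, lung and skin the highest embryo was 3.11 (skin), which overlapped the 3 lowest somite embryos. The somite difference was 1.54 (SE 0.38, adjusted p = 0.00915), with the same sign in 7 of 7 embryos, and with edgeR it was 1.41 (adjusted p = 0.0523). Dusp6 was the 1 of 10 members called, beside 1.11% of all genes. By adjusted p alone 5 of 10 members were higher in the somite, beside 3.53% of all genes: Dusp6, Etv4 (0.45, adjusted p = 0.000275), Spry1 (0.70, adjusted p = 0.0186), Spry2 (0.54, adjusted p = 0.0413) and Spry4 (0.34, adjusted p = 0.00408). All 6 response genes had a difference above 0 there, and the median over the 10 members was 0.43 against 0.00 over all genes. Fgfr2 was lower in the somite (-0.85, adjusted p = 0.00255).

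Etv4 reached its highest set mean in the somite, 0.56 ± 0.35 (n = 7 embryos), and Spry4 did too, at 0.50 ± 0.26. These means were under 1, and no other set mean of Etv4 was above 0.31 and none of Spry4 above 0.38. In both cases the somite overlapped the next set. Embryos had Etv4 of 0.13 to 1.10 in the somite and 0.00 to 1.56 in the forebrain (1.56 in E9.5 embryo 1). Spry4 was 0.01 to 0.81 in the somite and 0.00 to 0.81 in liver epithelium. Spry2 was 1.06 ± 0.40 in the somite and 0.98 ± 0.48 (n = 6) in the hindbrain, which overlapped. Spry1 was at like levels in lung epithelium (1.27 ± 0.82, n = 6), the somite (1.25 ± 0.62) and the hindbrain (1.25 ± 1.03, n = 6). In the heart 0 of 10 members were called by limma, beside 2.88% of all genes, with 2 at an unadjusted p under 0.05 and 1 called by edgeR (Fgfr1). Fgfr1 was lower in the heart (-0.96, adjusted p = 4.64e-05) with 6 embryos from 0.43 to 1.14. It passed the minimum with the embryo as a block (-1.01), without E9.5 embryo 2 (-1.01) and without E9.5 embryo 3 (-1.01). Endothelial markers summed to 1.44 to 4.66 in the heart, against at most 3.15 in each of the other 12 sets. Their part in the Fgfr1 difference was not tested.

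Forebrain and hindbrain neuronal cells were compared with the embryonic day as a covariate, to see whether receptors and responses differ along the brain. Of the 9 members tested (Fgfr4 had too few expressing cells) 0 were called, beside 0.62% of all genes. By limma 1 had an unadjusted p under 0.05, and edgeR called 0. Spry1 was lower in the forebrain by -0.49 (SE 0.53, adjusted p = 0.763) and Spry2 by -0.51 (SE 0.22, adjusted p = 0.345).

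E9.5 embryo 1 went against the other embryos in both brain samples. In its forebrain Spry1 was 3.46, while the other 5 embryos had 0.02 to 0.41. Etv4 was 1.56 there (others 0.00 to 0.17), Etv5 2.01 (others 0.05 to 1.07) and Dusp6 3.16 (others 0.17 to 2.01). In its hindbrain the order was the opposite: Spry1 was 0.03 (others 0.63 to 2.70), Etv5 0.03 (others 0.42 to 1.05), Spry2 0.16 (others 0.64 to 1.40) and Dusp6 0.45 (others 0.57 to 2.85). Of the receptors, Fgfr2 (2.36) and Fgfr3 (1.44) were higher in this hindbrain sample than in the other 5 embryos (at most 1.32 and 0.55), and both were lowest in its forebrain (0.04 and 0.00).

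The ligands Fgf8 and Fgf17 moved with these values. They are known signals of the isthmus, at the border of midbrain and hindbrain, and of the front end of the forebrain. In the forebrain of E9.5 embryo 1 Fgf17 was 3.02 and Fgf8 0.80, and in the forebrain of the other 5 embryos each was at most 0.01. In the hindbrain of E9.5 embryo 1 both were 0.00, while Fgf17 was 0.34 to 1.40 and Fgf8 0.05 to 1.05 in the others. A UMI of Fgf8 or Fgf17 was found in 34 of 45 forebrain cells of E9.5 embryo 1, in 3 of 43 of E9.5 embryo 2 and in 0 of 96 cells of later embryos (up to 3.13%). In the hindbrain it was found in 0 of 43 cells of E9.5 embryo 1 (up to 6.98%), 12 of 32 of E9.5 embryo 2 and 69 of 108 of the later embryos.

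Within the forebrain of E9.5 embryo 1, the 34 cells with a ligand UMI had mean levels of Spry1 of 3.81, Etv4 of 1.74 and Dusp6 of 3.32, and the 11 cells without one had 2.38, 1.01 and 2.68. Even those 11 cells were above every other forebrain sample in all 3 genes. The cells are of 1 embryo, so no test was made. In the 5 hindbrain samples that held both kinds of cells, Dusp6 was higher in cells with a ligand UMI in 5, Spry1 in 4 and Etv4 and Etv5 in 3 each. In the hindbrain of E10.5 embryo 1 Spry1 was 2.29 with and 2.31 without, Dusp6 was 1.38 and 1.37, and Etv5 was 0.82 and 2.16. Cells were not thinned for this split. Median UMIs of hindbrain cells with and without a ligand UMI were 263090 and 62348.5 in E11.5 embryo 2 and 367634 and 161771 in E10.5 embryo 2. They were 253734 and 235702 in E11.5 embryo 1, 1.20e+06 and 1.05e+06 in E9.5 embryo 2, and 242758 and 244138 in E10.5 embryo 1. The part of depth was not tested. The hindbrain label was checked with regional genes that were picked after the values were seen. En1, a gene of midbrain and anterior hindbrain, was 0.00 in the hindbrain of E9.5 embryo 1 and 1.13 to 2.75 in the other 5, while Pax6 was 4.12 there and 0.00 to 0.83 in the others. Hoxa2, a gene of the more posterior hindbrain, was at most 0.11 in every hindbrain sample. The part of the dissected region in these values was not tested.

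Without E9.5 embryo 1 the Spry1 difference, forebrain minus hindbrain, was -1.28 (adjusted p = 0.0771), and that of Spry2 was -0.80 (adjusted p = 0.0291), under the minimum. In the 4 brain embryos of E10.5 and E11.5 Spry1 was called at -1.52 (adjusted p = 0.0175), with 0.02 to 0.36 in forebrain and 0.63 to 2.70 in hindbrain. Fgf17 was called as well in these embryos (-1.15, adjusted p = 0.00131).

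**Figure D4:**
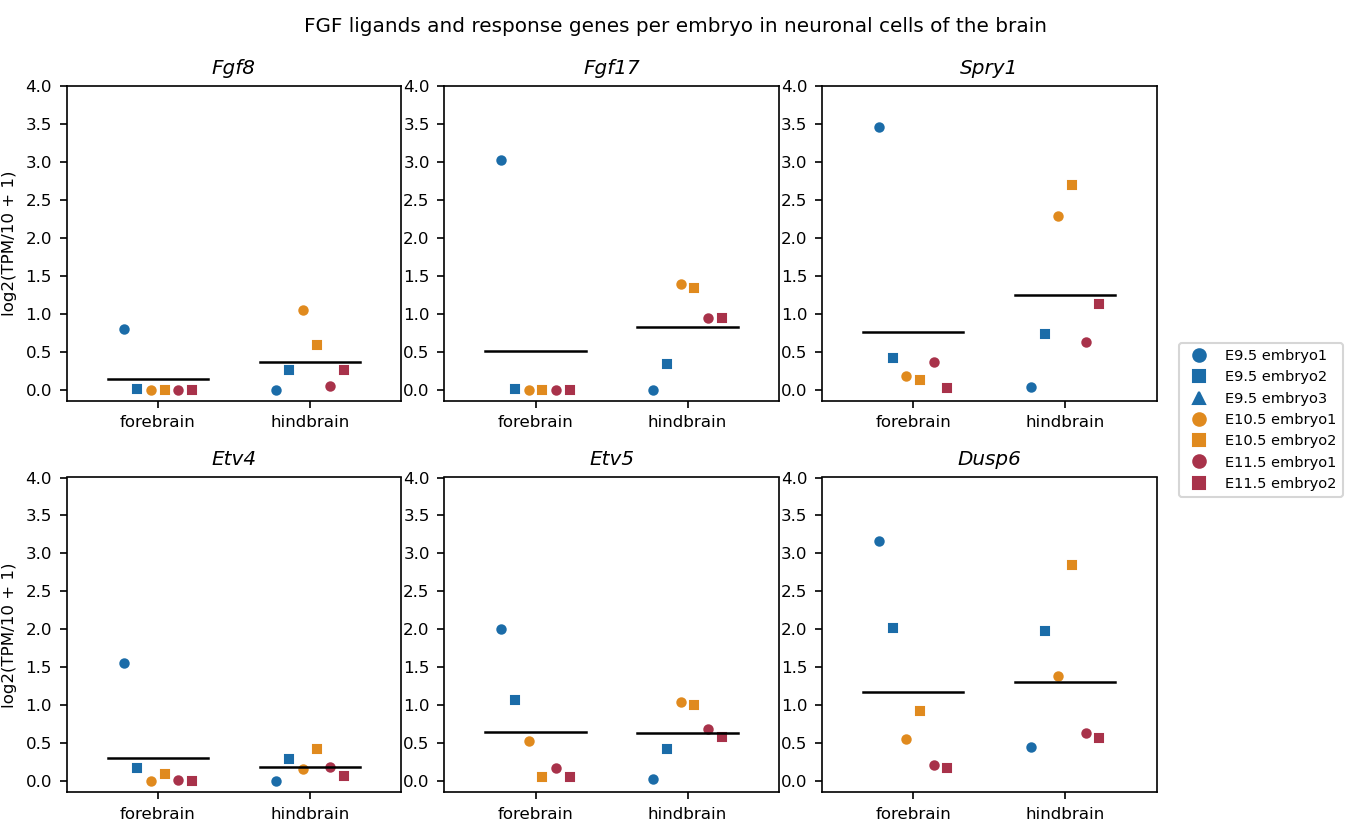
Level per embryo (points, colored by day and shaped by embryo) of the ligands Fgf8 and Fgf17 and of Spry1, Etv4, Etv5 and Dusp6 in neuronal cells of forebrain and hindbrain, in log2(TPM/10 + 1), with black bars at the mean. E9.5 embryo 1 is the highest forebrain point of all 6 genes (Spry1 at 3.46) and the lowest hindbrain point of each.

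Change over the 3 days was fitted as a slope per day in 11 sets, with the embryo as the replicate. Dusp6 had a slope below 0 in all 11 sets, from -1.20 in the forebrain to -0.22 in liver epithelium. The sets come from the same embryos and are not independent. Only the forebrain slope was called (SE 0.38, adjusted p = 0.031), with 3.16 and 2.01 at E9.5, 0.56 and 0.92 at E10.5 and 0.21 and 0.17 at E11.5. Without E9.5 embryo 1 it was -0.86 (adjusted p = 0.338), and with the HiSeq 4000 embryos alone it was -0.55. Without E9.5 embryo 2 (-1.35, adjusted p = 0.0523), E11.5 embryo 1 (-1.30, adjusted p = 0.120) or E11.5 embryo 2 (-1.28, adjusted p = 0.102) the call was also lost, as it was after thinning (-1.10, adjusted p = 0.0655) and with edgeR (adjusted p = 0.167). The slope in intestine epithelium was -1.06 (adjusted p = 0.075), where the E9.5 embryos had 2.74, 1.61 and 1.95 and the 4 later ones 0.00 to 0.18. Fos and Egr1, immediate early genes that also respond to cell handling, had slopes below 0 in 10 of 11 sets each (-2.22 to 0.24 and -1.41 to 0.46), none called by limma (3 of 11 each at an unadjusted p under 0.05) or by edgeR, and their part in the Dusp6 values was not tested.

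Fgfr3 rose with the day in the forebrain, from 0.00 and 0.21 at E9.5 to 0.62 and 0.53 at E10.5 and 1.40 and 1.28 at E11.5. The slope was 0.62 per day (SE 0.15, adjusted p = 0.0044), and without E9.5 embryo 1 it was 0.59 (adjusted p = 0.0316). The call was lost in the HiSeq 4000 embryos (0.76, adjusted p = 0.305) and with edgeR (adjusted p = 0.211). In the hindbrain its slope was -0.30 (adjusted p = 0.378), and the slopes of the 2 regions differed by 0.92 (SE 0.22, adjusted p = 0.0146). Without E9.5 embryo 1 that difference was 0.62 (adjusted p = 0.759), without E11.5 embryo 1 it was 0.93 (adjusted p = 0.0565), and in the HiSeq 4000 embryos it was 0.50 (adjusted p = 1). With edgeR it was not called either (adjusted p = 0.805). Fgfr3 also rose in lung epithelium, by 0.59 per day (SE 0.15, adjusted p = 0.0157), where E11.5 embryo 1 had 1.88 and E10.5 embryo 1 had 0.00. Without E11.5 embryo 1 the slope was 0.31 (adjusted p = 0.415), so this call rested on that embryo. It was also lost with edgeR (adjusted p = 0.337).

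Members called for a slope were 2 of 10 in the forebrain (Dusp6 and Fgfr3), beside 7.7% of all genes, and 1 of 10 in lung epithelium, beside 2.42%. In the forebrain all 6 response genes had a slope below 0, with a median over the members of -0.34 against -0.01 over all genes. Without E9.5 embryo 1 the members' median was -0.08 and 5 of 6 response slopes were below 0 (Spry4 at 0.02), and in the HiSeq 4000 embryos it was -0.03 with 5 of 6 below 0 (Spry1 at 0.04). Etv4 passed the adjusted p there (-0.43, adjusted p = 0.00284) but was -0.07 without E9.5 embryo 1. In the other 9 sets 0 of 90 tests gave a call by limma, while 15 had an unadjusted p under 0.05 and edgeR called 2, both in intestine epithelium. In the HiSeq 4000 embryos, which in the brain are those of E10.5 and E11.5, Spry1 in the hindbrain was called, at -1.62 per day (adjusted p = 0.0251). With all embryos its hindbrain slope was above 0 and not called: the forebrain slope was -0.87 and forebrain minus hindbrain was -1.12. Without E9.5 embryo 1 the Spry1 forebrain slope was -0.09 and forebrain minus hindbrain was 0.08, and neither was called. The shares of all genes called were 1.89% in intestine epithelium, 2.27% in liver epithelium and 2.68% in skin epithelium. For mesenchyme they were 1.25% in intestine, 1.62% in lung and 0.903% in skin, and they were 2.15% in hindbrain, 2.78% in heart and 0.348% in somite. Spry4 rose in liver epithelium under the minimum slope (0.38, adjusted p = 0.000193), and in the somite its slope was 0.23 (adjusted p = 0.0558).

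Slopes were compared between the 4 epithelia and between the brain regions. Fgfr3 in forebrain against hindbrain, given above, was the 1 of 10 members called, beside 0.437% of all genes. In epithelium 0 of 10 members were called in intestine (beside 3.3% of all genes), liver (1.79%), lung (1.52%) and skin (1.74%), with 3 tests at an unadjusted p under 0.05 by limma and 0 calls by edgeR. The plot of level by day shows the Dusp6 and Fgfr3 values behind these slopes.

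**Figure D5:**
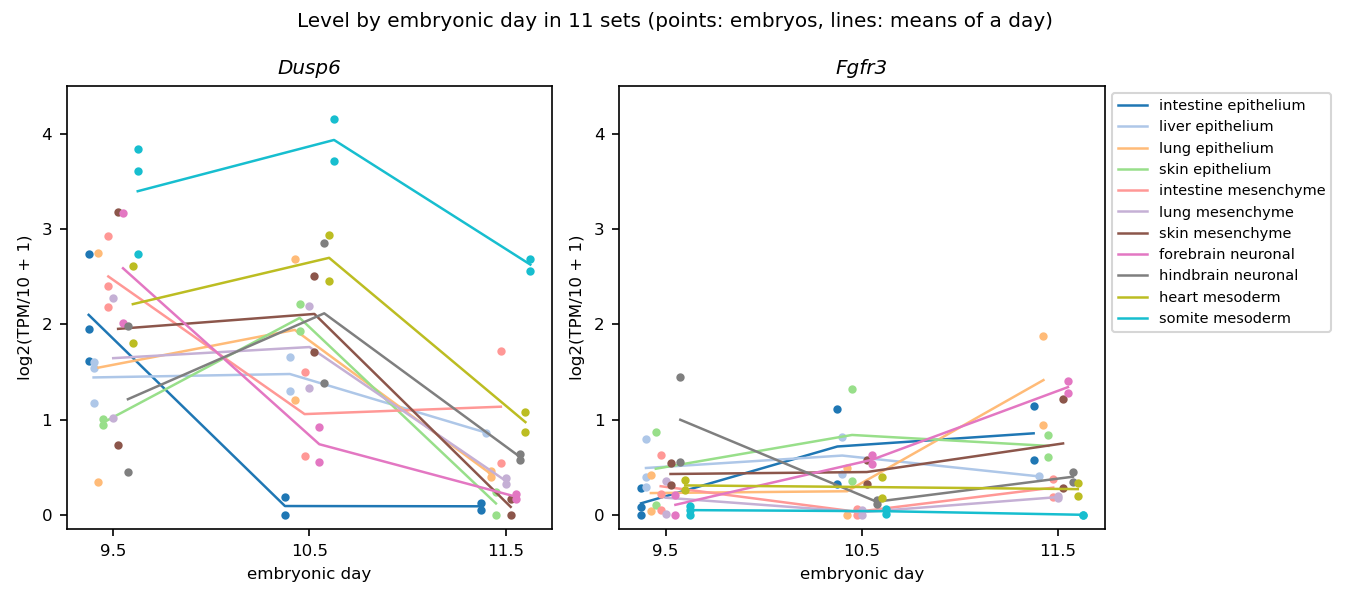
Level, log2(TPM/10 + 1), of Dusp6 and Fgfr3 against embryonic day in 11 sets of cells (colors), with a point per embryo, moved slightly sideways for each set, and a line through the means of each day. The Dusp6 slope is below 0 in 11 of 11 sets, and Fgfr3 in the forebrain goes from 0.00 and 0.21 at E9.5 to 1.40 and 1.28 at E11.5.

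Over all comparisons the 10 members gave 25 calls in 389 tests (6.43%), and all genes gave 2.69%. The members were chosen with earlier results of these data known, so these shares do not form an independent comparison. These tests share embryos and cells, and the same gene often recurs: 9 of the 25 calls were of Fgfr2 and 7 of Etv5. Other genes of the pathway were described by list. Of the 18 secreted ligands 14 were tested in at least 1 comparison, and they gave 4 calls (0.911%). Only Fgf15 reached a mean of 1 in any set (hindbrain, 1.45 ± 0.68, n = 6), and 9 of the 18 stayed under 0.1 in their highest set. Fgf15, the mouse counterpart of human FGF19, was higher in the neuronal group by 1.24 (SE 0.13, adjusted p = 1.99e-08). In the forebrain it fell by 0.84 per day, and Fgf17 fell by 0.76 per day (adjusted p = 2.89e-07 and 0.00188). In the HiSeq 4000 embryos the Fgf15 slope was -0.31 (adjusted p = 0.727). Without E9.5 embryo 1 the Fgf17 slope was -0.00475. The Fgf17 slope differed between forebrain and hindbrain by -1.14 (adjusted p = 0.00516), a difference that was -0.20 (adjusted p = 1) without E9.5 embryo 1 and 0.43, of opposite sign, in the HiSeq 4000 embryos (adjusted p = 0.00039, under the minimum). Fgf10, the ligand of the lung bud, was at 0.36, 1.04 and 0.23 in liver mesenchyme, all of E9.5, and at 0.50 and 0.71 in lung mesenchyme of E9.5, which overlapped. In lung mesenchyme of the 4 later embryos it was 0.06 to 0.24.

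The receptor partners (7 of 8 tested) gave 16 calls (5.95%). Klb, the co-receptor that Fgf15 uses with Fgfr4, was higher in liver epithelium than in the other epithelia by 1.73 (SE 0.12, adjusted p = 8.61e-16) and than in liver mesenchyme by 1.70 (adjusted p = 1.29e-09). Klb was 1.75 ± 0.76 (n = 6 embryos) in liver epithelium, where Fgfr4 was 0.82 ± 0.23, and 0.07 ± 0.09 (n = 7) in intestine epithelium, the highest set of Fgfr4. Flrt3, a membrane protein that binds FGF receptors, was lower in hematopoietic cells by -1.80 (adjusted p = 1.78e-08) and higher in skin epithelium than in the other epithelia by 2.34 (adjusted p = 4.08e-08). It was lower in liver epithelium than in liver mesenchyme, by -3.84 (adjusted p = 7.48e-09). Flrt2 was higher in the mesoderm-derived group by 1.07 (adjusted p = 3.02e-07) and lower in skin epithelium than in skin mesenchyme by -2.13 (adjusted p = 0.000624).

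The adaptors (7 genes) gave 4 calls (1.47%), among them Gab1, higher in skin epithelium than in the other epithelia by 1.13 (SE 0.17, adjusted p = 1.5e-06). The 4 intracellular FGF homologous factors gave 0 calls in 156 tests by limma, with 31 at an unadjusted p under 0.05 and 16 calls by edgeR. The other feedback and response genes (12 of 14 tested) gave 37 calls (7.91%). In skin epithelium, where Etv5 was low, 3 of 12 were higher and 1 lower than in the other epithelia: Fos by 3.28 (adjusted p = 0.00289), Egr1 by 1.91 (adjusted p = 0.0218) and Dusp7 by 1.03 (adjusted p = 1.61e-05), against Ccnd1 by -2.71 (adjusted p = 1.22e-08). In liver epithelium 3 of 12 were higher, namely Ccnd1 by 3.22, Myc by 2.37 and Dusp9, an ERK phosphatase related to Dusp6, by 2.34 (adjusted p = 4.02e-08). In lung epithelium Ccnd1, a cyclin of the G1 phase, was the 1 of 12 called (1.96, adjusted p = 3.13e-05). Il17rd, a membrane inhibitor of FGF signaling, was higher in intestine mesenchyme than in the other mesenchymes by 1.22 (adjusted p = 2.64e-09). Of these, liver mesenchyme was of E9.5 alone. Il17rd was lower in intestine epithelium than in its mesenchyme by -1.08 (adjusted p = 4.64e-07).

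For each member the 3 genes with the most similar profile were taken by Pearson's r over 89 embryo means of 20 organ and group sets. The points share embryos, libraries and depth, and r is given as a description. The highest was that of Fgfr4 with Kif12 (r = 0.911), followed by Cpm (0.875) and Foxa1 (0.859), a transcription factor of endoderm. Etv5 had Ces1d (0.84) and Nkx2-1 (0.817) among its 3, the latter the lung and thyroid transcription factor. Fgfr2 was nearest to Lama5 (0.81), a laminin of epithelial basement membranes, Frem2 (0.768) and Nav2 (0.756), and Fgfr1 to H2afy2 (0.797), Tead2 (0.78) and Spin1 (0.78). The response genes Etv4 (r = 0.687) and Spry1 (0.622) were both nearest to Il17rd. After it came E330013P04Rik (0.636) and Prok2 (0.614) for Etv4, and Fgf17 (0.596) and Fgf8 (0.583) for Spry1. Spry2 (0.602) and Spry4 (0.549) were both nearest to Dusp6, followed by Zfp608 (0.561) and Mlf1 (0.529) for Spry2 and by Plod1 (0.504) for Spry4. Dusp6 was nearest to the immediate early gene Ier2 (0.703), then Adamts1 (0.627) and Mest (0.626). Fgfr3 had the lowest values, with Gm16523 (0.544), Rgag4 (0.521) and Sbf2 (0.514).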

How the data were processed

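Single cells of 8 organs of 7 embryos were picked and profiled by a modified STRT protocol with UMIs that reads the 3′ ends of transcripts. The authors aligned reads to mm10 with TopHat 2.0.12, counted uniquely mapped reads with htseq-count (version and annotation not given in the sources used here), removed UMI duplicates and scaled each cell to its total. CASAVA 1.8 is named in the submitters' processing notes. The deposited values, which the authors call TPM, are CPM (UMIs per 1000000 UMIs, no gene length, 2 decimals). Divided by a step fitted to the values of each cell, they gave whole UMIs for 100% of values above 0 (tolerance 0.05 UMIs). The totals so recovered equalled the UMI totals given by the study in 1916 cells. The whole UMIs were recovered for the test on counts.

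The organ, embryo and day come from the labels, and major groups and Epi or Mes names from the study's cell labels. Per embryo and set, log2(TPM/10 + 1) was averaged over at least 3 cells. The test was limma 3.58.1 (R 4.3.3) with a variance trend, on genes that reached a TPM of 10 in 3 or more compared cells. P-values were adjusted by Benjamini-Hochberg over all genes of a contrast: 17425 genes for the major groups, 15608 for epithelium and mesenchyme, 14195 for the brain, 15803 for heart and somite, and 16952 for slopes. All adjusted p-values are from limma unless edgeR 4.0.16 is named. Embryos are separate animals. The fit was tested on simulated data.

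Samples of different sets pair by animal. Over 132 pairs of sets, embryo deviations correlated at -0.106 to 0.472 (median 0.0965), and fits with the embryo as a replicate block were made beside the unblocked ones. With the block, Fgfr1 in the heart was called and no call was lost.

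The members and all gene lists were chosen with earlier results of these data known. Named genes are the 10 members, up to 3 called genes of the largest difference per list and comparison, each ligand by its highest set, and the 3 genes with the most similar profile per member, of which some are not reported here. Alternatives were log2(TPM + 1), no gene filter, at least 5 cells per mean, each embryo left out, edgeR on summed UMIs, thinning to 100000 UMIs, the HiSeq 4000 embryos alone and the adjusted p alone. Keeping both cells of identical pairs was added after seeing the data.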

Additional observations from a re-analysis of the deposited data

Results flagged for a closer look

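Embryo means far from the other embryos of their set, by Dixon's criterion, were found in 22 of 120 member and set combinations. The nominal rate of 1 in 20 is no measure of chance here. Some sets have most embryos at or near 0, and the combinations share embryos. E9.5 embryo 1 accounted for 10 of the 22. In the brain these were Spry1 (3.46) and Etv4 (1.56) in its forebrain and Fgfr3 (1.44) in its hindbrain. In intestine epithelium, where this embryo gave 5 cells, Fgfr2 was low (0.12) and Etv5 (2.23) and Spry2 (2.06) were high. In liver epithelium Fgfr1 (2.70) and Fgfr4 (1.29) were high, as were Fgfr2 in hematopoietic cells (0.69) and Fgfr4 in the heart (0.079).

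The other 12 were high embryos. Those above 0.5 were Fgfr3 in skin mesenchyme of E11.5 embryo 2 (1.22) and, in E10.5 embryo 2, Spry2 in liver epithelium (0.91) and in lung mesenchyme (1.44). The remainder lay near 0, with most embryos of the set at or close to 0.00. They were Fgfr4 in skin epithelium of E9.5 embryo 3 (0.11), in forebrain of E11.5 embryo 1 (0.0693) and in hindbrain of E11.5 embryo 2 (0.0668). Etv4 was one in intestine epithelium (0.0158) and in skin mesenchyme (0.25) of E9.5 embryo 2 and in lung epithelium of E10.5 embryo 1 (0.36). Spry4 was one in intestine epithelium (0.10) and lung epithelium (0.0282) of E11.5 embryo 1 and in lung mesenchyme of E9.5 embryo 3 (0.19).

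Effects that differed between organs by a test of the difference itself were the epithelial to mesenchymal differences of Etv5 in lung (2.71 above the mean of the other organs), skin (-1.33) and intestine (-1.29) and of Fgfr2 in skin (1.94), intestine (-1.33) and liver (-1.34). The terms of a gene are not independent of each other. The slope of Fgfr3 differed between forebrain and hindbrain by 0.92 per day.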

How the results depend on the processing

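Of the 25 calls, 12 held under every alternative run and 0 changed direction. The 12 were Fgfr2 in the epithelial and Fgfr1 and Fgfr2 in the hematopoietic group, Dusp6 in the mesoderm-derived group, Fgfr4 in intestine, Etv5 in lung and Fgfr2 in skin against their mesenchyme, Fgfr2 in liver and skin and Etv5 in lung and skin among epithelia, and the Fgfr2 interaction in skin. The most calls, 12 of 25, were lost with edgeR on summed UMIs, among them Dusp6 in the somite (1.41, adjusted p = 0.0523) and the Etv5 interaction in lung (3.06, adjusted p = 0.108). With all embryos the counts of calls, which change with the scale and its minimum difference, were 4 over the major groups, 5 between epithelium and mesenchyme, 5 among epithelia, 0 among mesenchymes, 6 interactions, 0 in the brain, 1 in heart and somite, 3 slopes and 1 slope difference. With log2(TPM + 1), a larger unit for low genes, they were 12 over the groups, 10 among epithelia, 6 in heart and somite, 7 slopes and 2 slope differences. With edgeR they were 22 over the groups, 9 among epithelia, 1 among mesenchymes (Fgfr4 in intestine), 1 interaction, 7 in heart and somite and 0 slope differences. By the adjusted p alone they were 23 over the groups, 9 among epithelia, 7 in heart and somite, 5 slopes and 2 slope differences. In the HiSeq 4000 embryos alone they were 3 interactions, 1 in the brain (Spry1), 2 in heart and somite and 0 slope differences. Leaving out 1 embryo gave 3 to 5 between epithelium and mesenchyme, 2 to 6 interactions, 1 to 2 in heart and somite, 1 to 4 slopes and 0 to 2 slope differences. The cause of these changes was not tested.

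With the embryo as a replicate block the count in heart and somite was 2, by Fgfr1 in the heart (-1.01), and the block changed no other call. No gene filter and repeated cells kept changed no call of the 25. Liver mesenchyme rests on 3 embryos, and some embryo means rest on 3 to 5 cells.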
